A study of Homo sapiens with 6 samples.

Results

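The Hippo core kinases and scaffolds are 10 protein-coding genes: the kinases STK3, STK4, LATS1, LATS2, TAOK1 and TAOK3, the kinase-binding proteins SAV1, MOB1A and MOB1B, and the membrane scaffold NF2. They were chosen by symbol, and the TPM of their transcripts was summed per Ensembl gene ID. All 10 were found, each under 1 gene ID, with 90 transcripts together, among 63677 genes and 215170 transcripts in all. The study sequenced total RNA of KMS27, an established line of malignant human plasma cells, in 6 libraries. The 3 libraries labelled HA-TAZ come from cells that overexpress TAZ, the product of WWTR1, with an HA peptide tag, and are numbered HA-TAZ 1 to 3. The 3 others are labelled wild type and go by controls a to c. Their columns are named scr, a name in no label, and were taken as the wild type group because they are the 3 columns that do not name TAZ. HA also stands in the wild type titles, and whether these cells received a construct is not stated. Neither the vector nor its promoter is given. The protocol speaks of libraries made in triplicate, so the spread between libraries may be technical, and p-values measure that spread only. In bulk RNA, fewer cells with a transcript and less of it per cell cannot be told apart.

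In the Hippo pathway, the kinases STK3 and STK4 (also called MST2 and MST1) bind the scaffold SAV1 and phosphorylate the kinases LATS1 and LATS2 and their cofactors MOB1A and MOB1B. Active LATS kinases phosphorylate YAP and TAZ, which are then held in the cytoplasm by 14-3-3 proteins or degraded. NF2 (merlin) brings LATS kinases to the membrane, and the TAO kinases TAOK1 and TAOK3 act upstream. Transcription driven by YAP or TAZ with TEAD factors is known to raise LATS2 in other cells, a negative feedback. Plasma cell tumours often express little YAP1.

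WWTR1 was at 293 to 306 TPM in HA-TAZ libraries and 1.69 to 2.69 TPM in controls, in accord with the labels. TPM is abundance per transcript length, scaled to the same total in each library. YAP1 was at 0.00874 TPM or less in every library. Of 10 plasma cell markers, 9 had a mean of at least 1 TPM, and the exception was CD27. Their sum was 591 to 644 TPM in HA-TAZ and 691 to 795 TPM in control libraries. Sums over the markers of 7 other cell types, from B cells to erythroid cells, were at most 20.9 TPM, and none of these markers was at 0 in all libraries. The summed T or NK and epithelial markers were lower in each HA-TAZ library, at 1.86 to 2.14 against 2.45 to 2.84 TPM and at 2.78 to 3.90 against 4.99 to 6.08 TPM. All these marker sums are TPM as deposited, without scaling between libraries. On that scale, 43.6% of all tested genes were lower in every HA-TAZ library than in every control. The part of these marker differences in the results below was not tested. Library composition also moved with the group. Factors that bring the median gene to the same level were 0.866 to 0.967 for HA-TAZ libraries and 1.06 to 1.21 for controls. Without them the median log2 fold change of all tested genes is −0.27, and with them −0.03. Scaled TPM below is TPM divided by this factor. Single transcripts have their own factors, computed in the same way over transcripts and not listed here. A log2 fold change is that of scaled TPM + 1, HA-TAZ over control, unless another scale is named.

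The members spanned a wide range of levels. In TPM as deposited, STK4 was the highest in every library (49.1 to 63.2 TPM), followed in every library by MOB1A (32.6 to 38.04 TPM), TAOK1 (19.3 to 29.96 TPM) and STK3 (15.7 to 26.4 TPM). TAOK3, SAV1 and NF2 came next at 9.48 to 16.7, 10.4 to 14.9 and 10.9 to 13.5 TPM, and their order changed between libraries. LATS1 lay below these at 5.92 to 9.19 TPM, above MOB1B (4.95 to 6.28 TPM) in each library. LATS2 was the lowest member at 0.793 to 1.19 TPM. STK4 was thus the main MST kinase, MOB1A the main MOB1 protein and LATS1 the main LATS kinase at the RNA level.

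**Figure D1:**
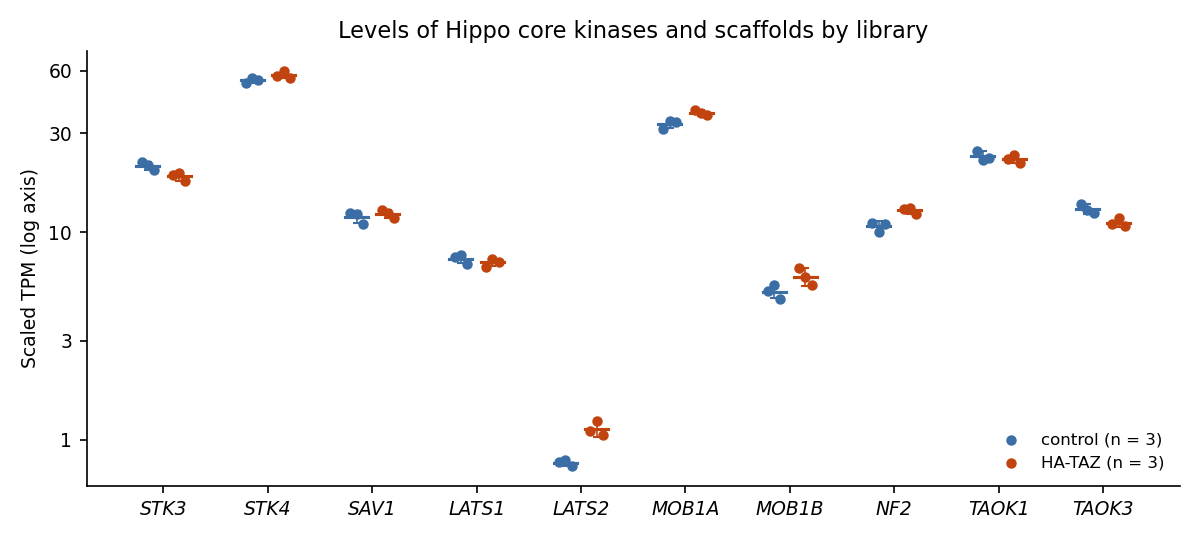
Scaled TPM of the 10 genes on a log axis, by library. Points are libraries, horizontal lines are means and bars are SD (n = 3 per group). LATS2, MOB1A and NF2 lay higher and STK3 and TAOK3 lower in every HA-TAZ library than in every control, and the other 5 genes overlapped.

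No member changed past the threshold in HA-TAZ cells. Of the 9 members with a mean of at least 1 TPM, 0 passed an adjusted p of 0.05 (limma, with Benjamini-Hochberg adjustment over all 22651 tested genes), where 7.29% of all genes did. At an unadjusted p-value under 0.05, NF2 and MOB1A were higher and TAOK3 and STK3 lower, 4 of 9 members, against 30.7% of all genes. The log2 fold changes of the 9 members ran from −0.20 to 0.23 with a median of 0.05, beside a median of −0.03 over all tested genes. Missing the threshold does not show that a gene was unchanged. The intervals below cover only the spread between libraries under the scaling named. Estimates under another scaling can lie outside them, as for STK4 (−0.21 with TPM as deposited, against an interval from −0.03 to 0.21). In scaled TPM, 3 of the 10 members were higher and 2 lower without overlap between the groups, where 38.5% of all tested genes did not overlap (20.2% higher, 18.3% lower). In TPM as deposited, STK3, LATS1, TAOK1 and TAOK3 were lower without overlap and 0 members were higher, where 48% of all genes did not overlap (4.41% higher, 43.6% lower).

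The MST kinases are described first. STK3 (ENSG00000104375) was at 18.9, 19.4 and 17.6 scaled TPM in the HA-TAZ libraries and at 21.8, 21.02 and 19.96 in controls a, b and c. Every HA-TAZ library was below every control, though HA-TAZ 2 and control c were close. The means were 18.7 ± 0.908 and 20.9 ± 0.944 scaled TPM (SD, n = 3 each; exact permutation p = 0.1, the smallest this design allows). The log2 fold change of STK3 was −0.16 with a 95% interval from −0.31 to −0.01 (limma, adjusted p = 0.145). It passed the threshold with TPM as deposited (−0.45, limma, adjusted p = 0.0482) and as a share of protein-coding TPM (−0.27, limma, adjusted p = 0.0148), where 14.7% and 22.7% of all genes were called, 13.5% and 15% lower. Over protein-coding transcripts it was −0.10 with a 95% interval from −0.31 to 0.10 (limma, adjusted p = 0.424). STK4 (ENSG00000101109, chr20:44966474-45079959, GRCh38) was at 56.8, 60.2 and 55.6 scaled TPM in HA-TAZ and at 52.3, 55.7 and 54.1 in controls. HA-TAZ 3 lay just below control b, so the groups overlapped. Its log2 fold change was 0.09 with a 95% interval from −0.03 to 0.21 (limma, adjusted p = 0.272), and it turned negative with TPM as deposited (−0.21) and as a share of protein-coding TPM (−0.03).

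SAV1 (ENSG00000151748, chr14:50632058-50668331), the scaffold that joins MST kinases to LATS kinases, was at 12.7, 12.4 and 11.7 scaled TPM in HA-TAZ and at 12.3, 12.3 and 10.9 in controls. The groups overlapped. Its log2 fold change was 0.05 with a 95% interval from −0.13 to 0.22 (limma, adjusted p = 0.687). The sign turned with TPM as deposited (−0.23), as a share of protein-coding TPM (−0.0637), over protein-coding transcripts (−0.12) and without control c (−0.00618).

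LATS2 (ENSG00000150457) was below the filter on level and was not in the main test. It is the member known as a feedback target, and the sequence near its start site is therefore shown. The TEAD core motif CATTCC, or its reverse complement GGAATG, was searched on both strands in RefSeq windows of 300 bases (250 before and 50 from the start site, build GRCh38.p14). Windows were at hand for 9 of the 10 members, all but STK3, 14 windows in all. A match was found for LATS2 and for TAOK3, 1 window each, and 14.03% of all 35116 windows hold one. The 2 matches, 5′ to 3′ on the strand of the gene with the motif in capitals, were as follows.
LATS2, chr13:21061560-21061589, minus strand: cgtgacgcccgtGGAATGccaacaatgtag
TAOK3, chr12:118190752-118190781, minus strand: ttatccttccagGGAATGctattttttcac
The match of LATS2 begins at base 10 counted from the start site as base 1, and that of TAOK3 at 234 bases before 1 of its 2 start sites. The LATS2 match lies just outside the gene as annotated in GENCODE release 29 (chr13:20973032-21061547), and the TAOK3 match lies within its gene (chr12:118149801-118372945), upstream of the start of a shorter transcript. A match describes letters and not a bound site.

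LATS2 was at 1.10, 1.23 and 1.05 scaled TPM in the HA-TAZ libraries and at 0.781, 0.801 and 0.750 in controls. All HA-TAZ libraries were above all controls. The means were 1.13 ± 0.0943 and 0.777 ± 0.0260 scaled TPM (SD, n = 3 each), a ratio of 1.45 (exact permutation p = 0.1). In TPM as deposited the values were 0.955, 1.19 and 0.935 against 0.944, 0.874 and 0.793, and the groups overlapped because HA-TAZ 3 lay below control a. With no filter on level, the log2 fold change of LATS2 was 0.26 with a 95% interval from 0.03 to 0.49, and it missed the threshold (limma, adjusted p = 0.209). Its main transcript, ENST00000382592.4, took 88.4% of its TPM. The mean of this transcript was 0.850 ± 0.158 TPM in HA-TAZ libraries and 0.828 ± 0.145 TPM in controls as deposited (SD, n = 3 each), with overlap. In scaled TPM it was higher without overlap. In the authors' deposited table its effect was 0.254 ± 0.119 (standard error, natural log, positive where HA-TAZ was higher), at q = 0.241. The mean in the authors' deposited table implies 296 estimated counts of this transcript in a typical library. Another LATS2 transcript, ENST00000542899.1, has no type in GENCODE release 29 and took 6.53% of LATS2 TPM. It was at 0.194, 0 and 0.178 TPM in the HA-TAZ libraries and listed at 0 in every control, so it adds to the LATS2 sum in HA-TAZ 1 and HA-TAZ 3 only.

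LATS1 (ENSG00000131023, chr6:149658153-149718256) did not follow LATS2. It was at 6.83, 7.42 and 7.23 scaled TPM in HA-TAZ and at 7.60, 7.77 and 7.05 in controls, with overlap. Its log2 fold change was −0.05 with a 95% interval from −0.23 to 0.12 (limma, adjusted p = 0.639). It was −0.32 with TPM as deposited (limma, adjusted p = 0.0886). As a share of protein-coding TPM and over protein-coding transcripts it was −0.16 each (limma, adjusted p = 0.154 and 0.121).

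Of the MOB1 cofactors, MOB1A (ENSG00000114978, chr2:74152528-74178898) was at 38.97, 37.6 and 36.6 scaled TPM in HA-TAZ and at 31.5, 34.5 and 33.9 in controls. The groups did not overlap. The log2 fold change was 0.18 with a 95% interval from 0.04 to 0.31 (limma, adjusted p = 0.0949). In a fit on transcripts typed protein-coding in GENCODE release 29, with factors computed anew, the log2 fold change was −0.11 (limma, adjusted p = 0.145). In that fit 0 of 9 members were called, where 18.9% of all genes were. The direction also turned with TPM as deposited (−0.12). MOB1B (ENSG00000173542, chr4:70902326-71022449) was at 6.73, 6.09 and 5.56 scaled TPM in HA-TAZ and at 5.19, 5.57 and 4.80 in controls. HA-TAZ 3 and control b were nearly equal, and the groups overlapped. Its log2 fold change was 0.20 with a 95% interval from −0.03 to 0.44 (limma, adjusted p = 0.211), and −0.05 with TPM as deposited.

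NF2 (ENSG00000186575, chr22:29603556-29698598), the tumour suppressor merlin, had the largest log2 fold change of the tested members in the main test. It was at 13.02, 13.1 and 12.2 scaled TPM in HA-TAZ and at 11.1, 10.04 and 10.996 in controls. All HA-TAZ libraries were above all controls. The means were 12.8 ± 0.502 and 10.7 ± 0.596 scaled TPM (SD, n = 3 each; exact permutation p = 0.1). The log2 fold change was 0.23 with a 95% interval from 0.07 to 0.40 (limma, adjusted p = 0.0807), and −0.04 with TPM as deposited. For NF2 it was 0.12 as a share of protein-coding TPM (limma, adjusted p = 0.213). Over protein-coding transcripts it was 0.07 (limma, adjusted p = 0.472). In each of these other settings TAOK3 had the largest absolute change of the tested members. Among 22642 tested genes outside the group, those whose log2 values across the 6 libraries lay nearest to those of NF2 were UCHL3, PDZD11, ACADVL, TBPL1 and RP11-686D22.8. Their root mean square distance from NF2 was 0.0161 to 0.0276 log2 units, after centring each gene on its own mean. NF2 itself had a root mean square deviation of 0.129 from its mean, and the small distances follow from choosing the nearest of many genes over 6 libraries.

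Of the TAO kinases, TAOK3 (ENSG00000135090) was at 10.95, 11.7 and 10.8 scaled TPM in HA-TAZ and at 13.8, 12.8 and 12.3 in controls. Every HA-TAZ library was below every control. The means were 11.2 ± 0.505 and 12.97 ± 0.736 scaled TPM (SD, n = 3 each; exact permutation p = 0.1). The log2 fold change was −0.20 with a 95% interval from −0.36 to −0.03 (limma, adjusted p = 0.113). It passed the threshold with TPM as deposited (−0.48, limma, adjusted p = 0.0489) and as a share of protein-coding TPM (−0.31, limma, adjusted p = 0.0174), where 14.7% and 22.7% of all genes were called. Over protein-coding transcripts it was −0.26 and missed the threshold (limma, adjusted p = 0.0585). TAOK1 (ENSG00000160551, chr17:29390464-29551904) was at 22.6, 23.7 and 21.7 scaled TPM in HA-TAZ and at 24.8, 22.3 and 22.8 in controls, with overlap. Its log2 fold change was −0.04 with a 95% interval from −0.19 to 0.11 (limma, adjusted p = 0.709), and its sign turned without control a.

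**Figure D2:**
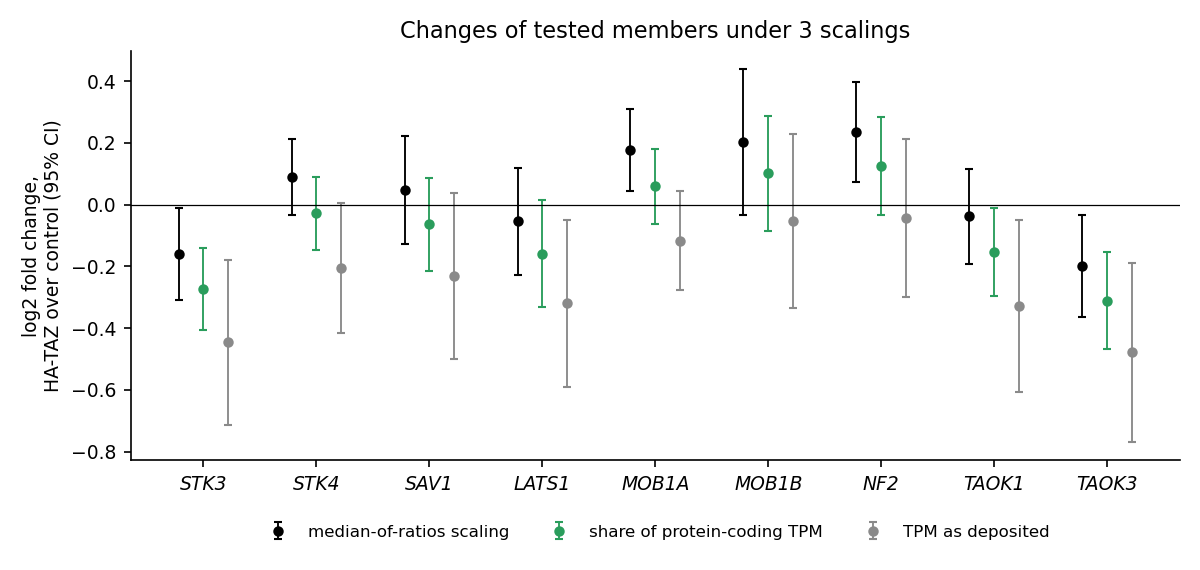
Log2 fold change of the 9 tested members, HA-TAZ over control, under median-of-ratios scaling, as a share of protein-coding TPM and with TPM as deposited. Points are limma estimates and bars their 95% intervals. The order of the genes is much the same under each scaling, all 9 lie below 0 with TPM as deposited, STK3, LATS1, TAOK1 and TAOK3 lie below 0 under all 3, and the intervals of STK3 and TAOK3 leave out 0 under all 3.

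Shares within a pair of paralogues do not depend on the scaling between libraries, and in 3 of the 4 pairs compared the groups did not overlap. The share of other gene pairs without overlap was not computed, and single genes were at 38.5% in scaled TPM, so this count is a description. STK3 made up 24.99%, 24.4% and 24.1% of the TPM of STK3 and STK4 in HA-TAZ libraries and 29.5%, 27.4% and 26.96% in controls. The difference was −3.47 percentage points, and it was −1.89 points over protein-coding transcripts only. With an STK4 transcript that has no type in GENCODE release 29 (ENST00000396731.4, 12.8% of STK4 TPM) counted as coding, it was −1.04 points with overlap (exact permutation p = 0.5, n = 3 each). LATS2 made up 13.9%, 14.3% and 12.7% of the LATS kinases in HA-TAZ libraries and 9.32%, 9.35% and 9.62% in controls, a difference of 4.19 points. These shares were tight within the groups, with an SD of 0.826 and 0.165 points (n = 3 each). Over protein-coding transcripts the LATS2 difference was 3.70 points, and with transcripts without a type counted as coding it was 5.96 points (exact permutation p = 0.1 for each). TAOK3 made up 32.6%, 33.1% and 33.3% of TAOK3 and TAOK1 in HA-TAZ libraries and 35.7%, 36.4% and 35.1% in controls, a difference of −2.76 points. Over transcripts with at least 1 TPM on average, however, the difference was −0.111 points (exact permutation p = 0.9, n = 3 each), and over protein-coding transcripts −4.08 points. MOB1A made up 86.04 ± 0.776% of the MOB1 pair in HA-TAZ libraries and 86.5 ± 0.948% in controls (SD, n = 3 each), with overlap. Over protein-coding transcripts the MOB1A difference was −2.12 points without overlap (exact permutation p = 0.1, n = 3 each). The exact two-sided permutation p was 0.1 for the first 3 pairs and 0.6 for MOB1, or 0.133 and 0.6 after Benjamini-Hochberg adjustment over the 4 pairs, and 3 against 3 libraries cannot go below 0.1 unadjusted.

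**Figure D3:**
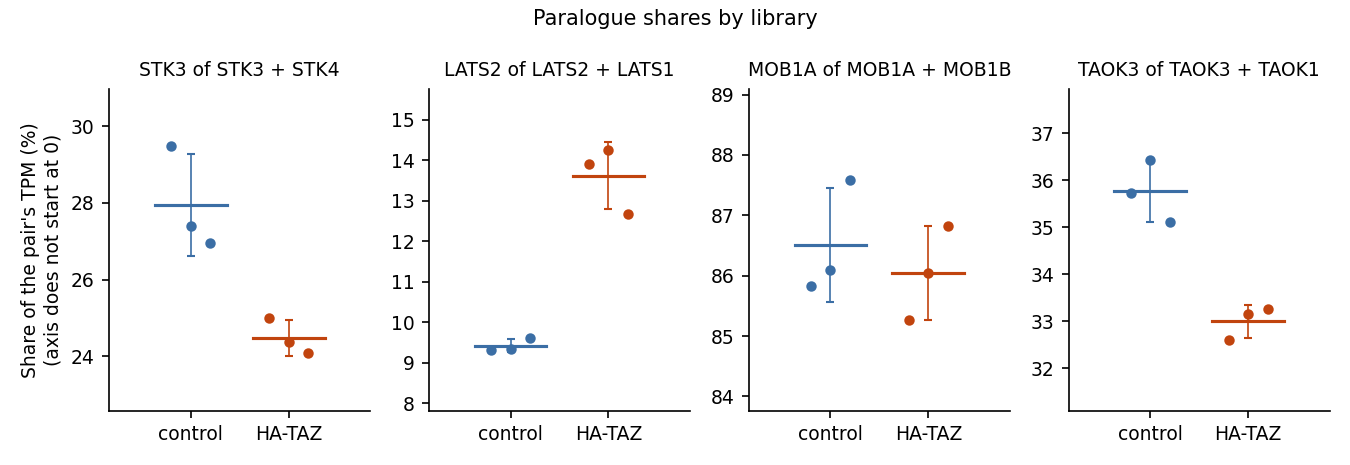
Share of a pair's TPM taken by its first-named gene, in percent, by library. Points are libraries, lines are means and bars are SD (n = 3 per group), and the axes do not start at 0. The LATS2 share was higher (12.7% to 14.3% against 9.32% to 9.62%) and the STK3 and TAOK3 shares lower in every HA-TAZ library, while the MOB1A shares overlapped.

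The transcripts behind these sums were examined next. Of the 90 transcripts, 32 had a mean of at least 1 TPM, and 0 of these passed the threshold (limma, Benjamini-Hochberg over 57448 transcripts; lowest adjusted p = 0.135), where 0.564% of all transcripts did. Without adjustment, 4 were higher and 1 lower at the same threshold, against 24.3% of all transcripts (13.3% higher, 11% lower). The authors' deposited table had statistics for 67 of the 90, and 3 had a q-value under 0.05, where 5.68% of all its transcripts did. The first was ENST00000372806.3, which took 56.3% of the TPM of STK4. In the authors' deposited table its effect was 0.173 ± 0.0477 (standard error, natural log), at q = 0.00939. Its values were 30.3, 33.4 and 28.6 TPM in HA-TAZ libraries and 36.97, 31.6 and 29.2 TPM in controls as deposited, with overlap and a lower mean in HA-TAZ libraries, opposite in sign to the authors' deposited table, and in scaled TPM it was higher without overlap. The second was ENST00000309395.2, which took 70.8% of the TPM of MOB1B, with 0.220 ± 0.0669 at q = 0.0245 in the authors' deposited table. The third was ENST00000523960.1, an STK3 transcript with a retained intron, with −0.298 ± 0.0983 at q = 0.0450 in the authors' deposited table. Its values were 0.855, 1.16 and 1.14 TPM in HA-TAZ libraries and 1.98, 1.74 and 1.59 TPM in controls, without overlap. In the limma test here these 3 had adjusted p-values of 0.160, 0.177 and 0.218.

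The main coding transcript of STK3, ENST00000419617.2, took 43.3% of its TPM. Its mean was 7.81 ± 0.954 TPM in HA-TAZ libraries and 9.68 ± 1.61 TPM in controls as deposited (SD, n = 3 each), with overlap. It had a log2 fold change of −0.00442 with a standard error of 0.101 (limma, adjusted p = 0.984), and the authors' deposited table had 0.0152 ± 0.0774 for it (standard error, natural log). The second STK3 transcript, ENST00000518582.1, a processed transcript without a coding sequence, was at 2.40, 4.11 and 3.71 TPM in HA-TAZ and at 4.91, 5.69 and 5.87 TPM in controls, and its groups overlapped in scaled TPM. Protein-coding transcripts took 48.98%, 48.7% and 45.1% of STK3 TPM in HA-TAZ libraries and 43.6%, 39.98% and 40.5% in controls, without overlap. The share was also higher in every HA-TAZ library for TAOK3 (83.5 ± 1.63% against 79.1 ± 3.77%) and STK4 (72.7 ± 2.03% against 66.7 ± 1.61%; SD, n = 3 each). These shares count 4 member transcripts without a type in GENCODE release 29 as not coding. With ENST00000396731.4 counted as coding, STK4 was at 83.9 ± 1.98% and 80.9 ± 2.29% (SD, n = 3 each), and the groups overlapped, as they did with it left out. It was lower in every HA-TAZ library for MOB1A (72.2 ± 1.85% against 79.7 ± 4.20%) and NF2 (97.7 ± 0.881% against 99.6 ± 0.346%; SD, n = 3 each). The NF2 difference rests on ENST00000432151.1 and ENST00000347330.5, which were at most at 0.231 and 0.143 TPM in any library. The share overlapped for the other 5 members. Over all 11676 tested genes with a coding transcript, 20.4% had a share higher in every HA-TAZ library and 3.29% a lower one.

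**Figure D4:**
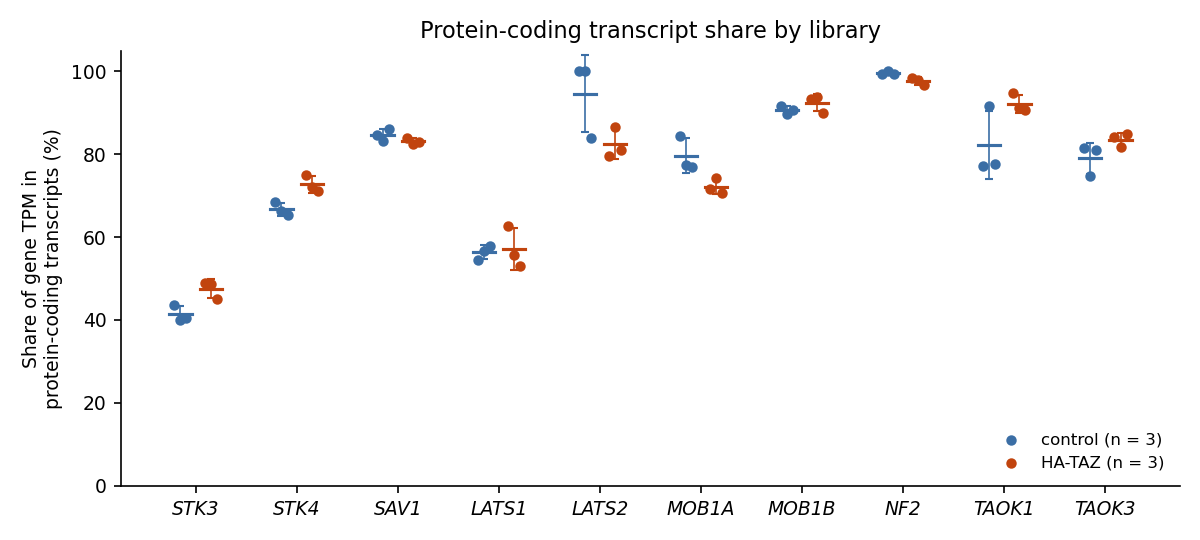
Percent of each gene's TPM in transcripts typed protein-coding in GENCODE release 29, by library. Points are libraries, lines are means and bars are SD (n = 3 per group). Transcripts without a type count as not coding. STK3, STK4 and TAOK3 were higher, STK4 under this counting only, and MOB1A and NF2 lower in every HA-TAZ library, and control a and control c of TAOK1 stood below the other libraries at 77.3% and 77.8%.

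For MOB1A, the main coding transcript ENST00000396049.4 (76.1% of TPM) had a log2 fold change of 0.04 (limma, adjusted p = 0.758). The non-coding ENST00000497054.1 was at 5.36, 3.43 and 3.90 TPM in HA-TAZ and at 1.49, 3.799 and 1.94 TPM in controls, with a log2 fold change of 0.87 (limma, adjusted p = 0.149). Control b lay between HA-TAZ 2 and HA-TAZ 3 in TPM as deposited, and in scaled TPM every HA-TAZ library was above every control. The NF2 sum was spread over ENST00000361166.4, ENST00000338641.4 and ENST00000361452.4 (33.3%, 27.7% and 26.2% of TPM), whose log2 fold changes were 0.13, 0.25 and 0.23 (limma, adjusted p = 0.751, 0.373 and 0.251). For TAOK1, the main transcript ENST00000261716.3 (55.5% of TPM) had a log2 fold change of 0.08 (limma, adjusted p = 0.552). The coding transcripts ENST00000583121.1 and ENST00000536202.1 (15.6% and 15.3% of TPM) had log2 fold changes of 0.66 and −0.30 (limma, adjusted p = 0.135 and 0.224). In scaled TPM the former was higher without overlap and the latter overlapped. A TAOK1 transcript with a retained intron, ENST00000587277.1, was at 3.96, 0.452 and 3.02 TPM in controls a, b and c, at 0.530 TPM in HA-TAZ 2 and listed at 0 in HA-TAZ 1 and HA-TAZ 3. The authors' deposited table implies 4.64 estimated counts for it, few for a comparison. TAOK3 was split between 2 coding transcripts. ENST00000392533.3 was at 3.78, 6.24 and 2.99 TPM and ENST00000419821.2 at 4.67, 0.699 and 3.58 TPM in controls a, b and c. Control b thus had more of the first and less of the second, while HA-TAZ libraries were even, with 4.06 ± 0.398 and 1.74 ± 0.264 TPM (SD, n = 3 each).

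The other genes of the pathway were described from 9 lists of 96 genes, of which 79 passed the filter on level. Of these, 7 were called higher and 2 lower (limma, adjusted p under 0.05), where 4.67% and 2.63% of all genes were, and WWTR1 is 1 of the 7. Without adjustment, 19 were higher and 7 lower at this threshold, where 16.6% and 14.1% of all genes were. The median log2 fold change of the 79 was 0.09. With any 1 library left out, 1 to 3 of these genes, WWTR1 among them, were called.

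Among 14 tested upstream kinases, SIK1 and MAP4K3 were called. SIK1, a salt-inducible kinase, was at 4.65, 5.29 and 5.52 TPM in HA-TAZ and at 3.65, 3.58 and 3.34 TPM in controls, with a log2 fold change of 0.68 (limma, adjusted p = 0.0185). MAP4K3, which can phosphorylate LATS kinases in parallel to the MST kinases, was at 19.97, 28.3 and 22.2 TPM in HA-TAZ and at 45.2, 39.2 and 38.4 TPM in controls. Its log2 fold change was −0.49 (limma, adjusted p = 0.0389), the lowest of the 14 upstream kinases and below that of any tested member. The groups did not overlap on either scale for SIK1 or MAP4K3, and both were called with TPM as deposited. With a library left out, SIK1 was called in 0 of 6 fits and MAP4K3 in 1, without HA-TAZ 2 (limma, adjusted p = 0.0530 to 0.0703 and 0.0487 to 0.116). MAP4K3 also missed the threshold with no filter on level and without trend (limma, adjusted p = 0.0703 and 0.0597).

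The 14-3-3 proteins, which hold phosphorylated TAZ in the cytoplasm, had 6 tested genes, with YWHAG, YWHAB and YWHAQ called higher and 0 lower. YWHAG was at 149.04, 166 and 149.2 TPM in HA-TAZ and at 139.8, 138.3 and 128.4 TPM in controls, with a log2 fold change of 0.49 (limma, adjusted p = 0.0106). YWHAB and YWHAQ had log2 fold changes of 0.18 and 0.23 (limma, adjusted p = 0.0439 and 0.0462), which were −0.12 and −0.07 with TPM as deposited, without a call. YWHAG had 0.19 there and no call either (limma, adjusted p = 0.0946). With a library left out, YWHAG was called in 4 of 6 fits, all but those without HA-TAZ 1 or HA-TAZ 2, and YWHAB and YWHAQ in 0.

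Of 15 tested genes for ubiquitin ligases, their partners and casein kinases, CSNK1E was called higher and NEDD4 lower. CSNK1E, a casein kinase that primes TAZ for degradation, was at 26.9, 27.1 and 24.8 TPM in HA-TAZ and at 21.3, 21.8 and 21.7 TPM in controls, with a log2 fold change of 0.56 (limma, adjusted p = 0.0235). NEDD4, a ligase with WW domains, was at 42.3, 60.2 and 51.6 TPM in HA-TAZ and at 108.5, 88.7 and 80.04 TPM in controls, with a log2 fold change of −0.54 (limma, adjusted p = 0.0449). Neither gene overlapped between the groups, and both were called with TPM as deposited. With a library left out, CSNK1E was called in 2 of 6 fits, without control a and without control c, and NEDD4 in 0 (limma, adjusted p = 0.0447 to 0.0853 and 0.0683 to 0.118). NEDD4 also missed the threshold with no filter on level, without trend and over protein-coding transcripts (limma, adjusted p = 0.0846, 0.0636 and 0.698).

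In the remaining lists, WWC3, a relative of the scaffold KIBRA, was the single call among 12 tested apical and junctional genes, with a log2 fold change of 0.26 (limma, adjusted p = 0.0485) that was −0.02 with TPM as deposited, and it was called in 0 of 6 fits with a library left out. The STRIPAK complex, a phosphatase assembly that removes phosphate from MST kinases, had 0 calls among 15 tested genes, 5 higher and 0 lower at an unadjusted p-value under 0.05, and a median log2 fold change of 0.09. Its most abundant genes, PPP2CA and PPP2R1A, had log2 fold changes of 0.20 and 0.35 (limma, adjusted p = 0.126 and 0.0523). With TPM as deposited these were −0.10 and 0.06, without a call. The NDR kinases and other MOB proteins had 0 calls among 7 tested genes, with 1 higher and 1 lower at an unadjusted p-value under 0.05. FRYL and STK38, the most abundant of them, had log2 fold changes of −0.27 and −0.10 (limma, adjusted p = 0.0993 and 0.320), and both were called lower with TPM as deposited (limma, adjusted p = 0.0467 and 0.0498). The RASSF proteins, which bind MST kinases, had 0 calls among 6, with 1 higher and 1 lower at an unadjusted p-value under 0.05, and RASSF3 and RASSF5 had 0.00191 and 0.25 (limma, adjusted p = 0.985 and 0.222). LIMD1, the single tested LIM protein that binds LATS, had 0.12 (limma, adjusted p = 0.380). RASSF3, RASSF5 and LIMD1 had −0.28, −0.03 and −0.16 with TPM as deposited, without a call.

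**Figure D5:**
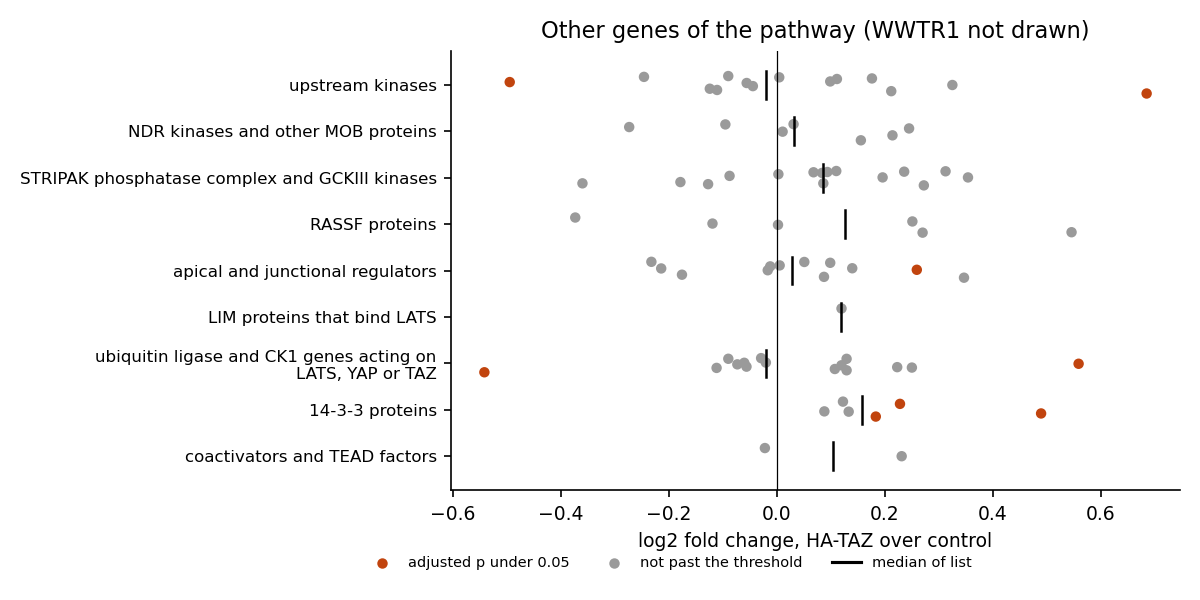
Log2 fold change of 78 tested genes in 9 lists of other Hippo pathway genes, HA-TAZ over control, with WWTR1 not drawn and not in the median of its list. Each point is a gene, coloured where its limma adjusted p is under 0.05, and black marks are list medians. The 8 coloured points are SIK1, CSNK1E, YWHAG, WWC3, YWHAQ and YWHAB above 0 and MAP4K3 and NEDD4 below 0.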

How the data were processed

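TPM per transcript was deposited by the authors for 6 libraries and has the same sum in each, so it carries no read depth, and its precision was judged from the spread between libraries. kallisto 0.46.0, sleuth 0.30.0 and the build GRCh37 are named in the submitters' processing notes, without a role. The authors' deposited table holds a Wald test per transcript, with p-values and q-values, and its effects and means are natural logs, per the file headers; its standard errors are on the same scale. Its means imply estimated counts.

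TPM was summed per gene ID and divided by median-of-ratios factors over 21512 tested genes above 0 in all libraries. Transcript TPM was divided by factors computed in the same way over tested transcripts. Genes or transcripts with a mean TPM of at least 1 were tested with limma (trend, two-sided) on log2(scaled TPM + 1). Fold changes of low genes are understated. The share of protein-coding TPM divides by each library's sum over protein-coding genes, typed by GENCODE release 29, and 95% intervals come from limma. Single values were compared with exact permutation tests. Members and lists were chosen with earlier results of these data known, and the rule named all members and, per list, up to 4 called genes or else the 2 most abundant. Tools were R 4.3.3, limma 3.58.1, Python 3.11.15, pandas 2.3.3 and numpy 2.4.6. All 6 columns were used. Strand use in quantification is not given in the sources used here, so overlapping and antisense genes are uncertain.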

Additional observations from a re-analysis of the deposited data

How the results depend on the processing

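No paired analysis was run. No label says that the replicate numbers pair libraries, and the control columns carry a name found in no label and cannot be tied to numbered samples. With TPM as deposited or as a share of protein-coding TPM, 2 of 9 members were called, STK3 and TAOK3, both lower. In these settings 14.7% and 22.7% of all genes were called. Under the other settings, with each library left out in turn, 0 members were called. With TPM as deposited, where the median gene shifts to −0.27, the signs of STK4 (−0.21), SAV1 (−0.23), MOB1A (−0.12), MOB1B (−0.0535) and NF2 (−0.0428) turned. As a share of protein-coding TPM those of STK4 (−0.0283) and SAV1 (−0.0637) turned, and over protein-coding transcripts, a setting added after the data were seen, those of SAV1 (−0.12) and MOB1A (−0.11). Leaving out a library gave −0.00618 to 0.0834 for SAV1, −0.0672 to 0.00238 for TAOK1 and −0.852 to 0.0764 percentage points for the MOB1A share. The LATS2 share difference stayed between 3.87 and 4.66 points and that of STK3 between −3.95 and −2.70 in these fits. The 9 called pathway genes became 14 with TPM as deposited (3 higher, 11 lower), 19 as a share of protein-coding TPM (5 and 14), 14 over protein-coding transcripts (8 and 6), 4 without a filter and 4 without trend (4 and 0 each), and 1 to 3 with a library left out. Over all genes, 1652 calls became 3329 with TPM as deposited, 2654 as a share of protein-coding TPM, 691 without a filter, 758 without trend and 118 to 470 with a library left out. The cause of these changes between settings was not tested. TPM keeps no depth, so no limit from depth was computed.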
